A study of Mus musculus with 8 samples.

Results

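The genes described here are the 4 opioid receptors (Oprm1, Oprd1, Oprk1 and Oprl1), the cannabinoid receptor Cnr1 and 5 enzymes that make or degrade endocannabinoids (Dagla, Mgll, Abhd6, Napepld and Faah). They were chosen by symbol, as 10 of the 55032 genes in the table, and all 10 were among the 18294 genes that had enough counts to be tested. Total RNA was sequenced from striatum of 4 wild type (WT) and 4 16p11.2+/- mice, 1 library per mouse. All mice were C57BL/6 females at postnatal day 60 with no treatment named, and the 16p11.2+/- mice (DF in the sample names) carried a germline deletion of a chromosome 7 segment on one of the homologues. The library totals were 15125051 to 16387993 counts in WT mice and 15240680 to 16523429 in 16p11.2+/- mice.

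Opioid and CB1 receptors are G protein-coupled receptors that act mainly through Gi and Go proteins to lower cyclic AMP, open potassium channels and reduce transmitter release. In the striatum, enkephalin and dynorphin are made by medium spiny neurons and act on delta, mu and kappa receptors of these neurons and of their inputs. Endocannabinoids travel in the other direction, being made on demand in the postsynaptic neuron and acting on presynaptic CB1, until lipases and hydrolases break them down.

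No receptor or enzyme of the 10 passed the test for a difference between genotypes. With edgeR's quasi-likelihood test and Benjamini-Hochberg adjustment over all genes, 0 of the 10 genes had an adjusted p under 0.05, against 20 of all 18294 genes (0.109%). DESeq2 and limma-voom also called 0 of the 10, against 0.142% and 0.109% of all genes. At an unadjusted edgeR p under 0.05 the count was again 0 of 10, against 4.32% of all genes. The FPKM of WT and 16p11.2+/- mice overlapped for all 10 genes, whereas the genotypes were fully apart in CPM, the count scaled to library size, for 2.85% of all genes. Of the log2 fold changes (16p11.2+/- against WT), 5 were positive and 5 negative, with a median of 0.06 beside -0.01 over all genes tested. Among mice of the same genotype all of these genes but Abhd6 (SD 0.212 log2 CPM) varied more than most genes. The median SD of the 10 genes was 0.50 log2 CPM beside 0.25 over all genes. All of these are differences in bulk tissue, in which fewer cells of a type and less RNA per cell cannot be told apart.

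The labels of the libraries were checked first. Of 19 genes of the deleted segment, 18 were tested, all 18 were lower in 16p11.2+/- mice, and 12 passed the threshold, with a median log2 fold change of -0.995. Medium spiny neuron markers were present in every library with none of the 11 at 0. The libraries nevertheless stood apart in their content of other cells. All 7 thalamus markers (such as Tcf7l2 and Slc17a6) were higher in WT-1063, DF-1018, DF-1037 and DF-1062 than in the other 4 mice, and their mean log2 CPM was 6.27 to 7.15 in the former and 4.03 to 4.21 in the latter. The medium spiny neuron score was 6.71 in DF-1037 and 6.18 in DF-1062, below the range of 8.0 to 8.74 in the other 6 mice. The choroid plexus score was 7.5 in WT-1063 and 4.53 in WT-1015, above the range of 0.5 to 2.85 in the remaining mice.

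Levels of the 10 genes were compared in FPKM, which is fragments scaled to transcript length and library size. By the median of the 8 mice, Cnr1 was the highest at 56.0 FPKM, followed by Mgll at 34.8, Abhd6 at 16.2, Dagla at 15 and Oprl1 at 9.12. Below these lay Oprd1 at 6.70, Faah at 5.23, Oprk1 at 5.15, Napepld at 4.36 and Oprm1 at 0.131 FPKM. The ranges of neighbours in this order overlapped in every case except Napepld and Oprm1. Cnr1 exceeded Mgll in 7 of 8 mice and Mgll exceeded Abhd6 in 8 of 8, whereas Oprd1 and Faah, or Oprk1 and Napepld, took the higher place in 4 mice each.

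**Figure D1:**
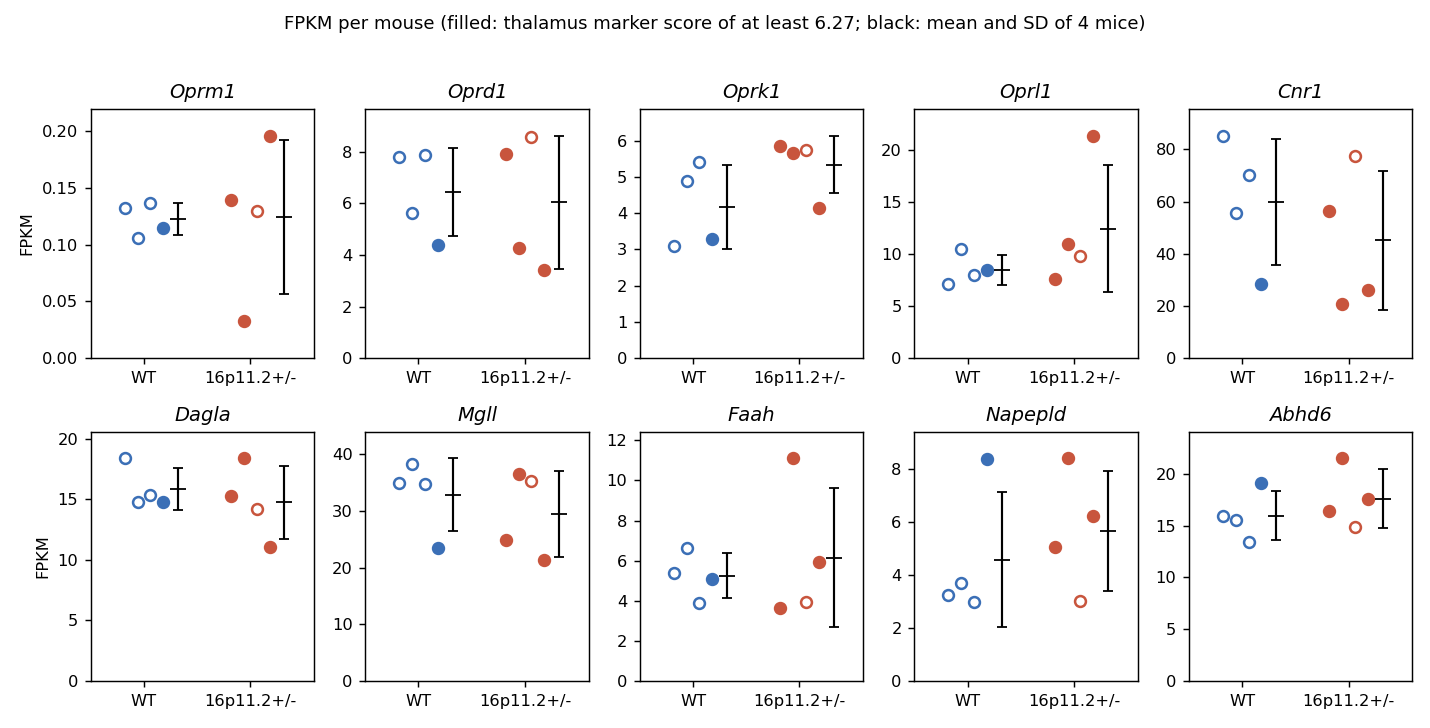
FPKM of the 10 genes in each mouse, on linear axes that start at 0, with WT mice in blue, 16p11.2+/- mice in red, and the mean with the SD of 4 mice in black. Filled points are the 4 mice with a thalamus marker score of at least 6.27. The genotypes overlap in every panel, and for Cnr1 and Oprd1 the same 3 filled points lie lowest.

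The positions of the 10 genes are given on GRCm38. The opioid receptor genes include Oprm1 at chr10:6758506-7038198, Oprk1 at chr1:5588466-5606131 and Oprl1 at chr2:181715016-181720985, all on the plus strand. Oprd1 at chr4:132110726-132144486 is on the minus strand, as is Faah at chr4:115967145-116017926, and Cnr1 at chr4:33924593-33948831 is on the plus strand of the same chromosome. The other enzyme genes are Dagla at chr19:10245265-10304877 and Napepld at chr5:21662901-21701396 on the minus strand, and Mgll at chr6:88724412-88828360 and Abhd6 at chr14:8002902-8056763 on the plus strand. None lies in the deleted segment, and each count sums reads over all exons of a protein-coding gene. Exons on the opposite strand overlap 1.19% of the exon length of Oprm1 (Ipcef1) and 3.29% of that of Mgll (Gm26588), so a few reads there could not be assigned if counting ignored strand.

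Cnr1 encodes CB1, the main cannabinoid receptor of brain, which is carried by medium spiny neurons, by cortical inputs and by some interneurons. In WT-1015, WT-1041, WT-1061 and WT-1063 its level was 85.3, 55.5, 70 and 28.3 FPKM. In DF-1018, DF-1037, DF-1059 and DF-1062 it was 56.4, 20.8, 77.4 and 26.0 FPKM. WT-1063, DF-1037 and DF-1062 were thus low, at 20.8 to 28.3 FPKM, and the other 5 mice of both genotypes lay at 55.5 FPKM or more. The highest mouse had 4.10 times the FPKM of the lowest, and the SD within genotypes was 0.823 log2 CPM, larger than that of 94.5% of the genes tested. The means were 59.8 ± 24.3 FPKM in WT and 45.2 ± 26.6 in 16p11.2+/- mice (SD, n = 4 each), with a log2 fold change of -0.42 (SE 0.47, 95% interval -1.49 to 0.65) and an adjusted p of 0.874 in edgeR. A two-sided exact permutation test of the FPKM over the 70 assignments of 8 mice gave p = 0.429, where the smallest p possible is 0.0286.

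Oprd1, the delta receptor for enkephalin, was 7.78, 5.62, 7.89 and 4.40 FPKM in WT-1015, WT-1041, WT-1061 and WT-1063. It was 7.93, 4.28, 8.57 and 3.42 FPKM in DF-1018, DF-1037, DF-1059 and DF-1062. The 3 lowest mice were the same as for Cnr1, and 2 of them were 16p11.2+/-. Between genotypes the log2 fold change was -0.10 (SE 0.33, 95% interval -0.86 to 0.66), with an adjusted p of 0.952 in edgeR and p = 0.771 in the exact permutation test of FPKM.

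The sequence before the start sites of Cnr1 and Oprd1, which were lowest in the same mice, is shown from RefSeq on GRCm38.p6. Whether this reference sequence bears on the differences between mice was not tested. Each window is the 250 bases upstream of the most upstream RefSeq start site, printed 5′ to 3′ on the strand of the gene, chr4:33924014-33924263 (plus) for Cnr1 and chr4:132144487-132144736 (minus) for Oprd1. Capitals mark GGGCGG, the core of the GC box bound by Sp-family factors, or its reverse complement CCGCCC.
Cnr1: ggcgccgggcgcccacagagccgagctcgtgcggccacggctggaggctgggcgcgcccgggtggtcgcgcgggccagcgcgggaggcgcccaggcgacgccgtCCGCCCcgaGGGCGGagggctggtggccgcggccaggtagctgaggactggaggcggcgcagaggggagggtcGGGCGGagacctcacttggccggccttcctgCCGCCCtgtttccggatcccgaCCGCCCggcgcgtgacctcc
Oprd1: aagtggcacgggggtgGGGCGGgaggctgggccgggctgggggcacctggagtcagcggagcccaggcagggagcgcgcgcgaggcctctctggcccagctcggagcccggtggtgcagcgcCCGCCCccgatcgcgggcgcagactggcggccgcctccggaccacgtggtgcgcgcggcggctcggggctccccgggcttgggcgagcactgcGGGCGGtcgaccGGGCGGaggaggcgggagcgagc
The Cnr1 window held 5 GC boxes and the Oprd1 window 4, while 32.7% of the 32851 promoter windows of this length held at least 1 on either strand. Neither held TATAAA, found in 12.4% of all windows, or TGACG, the core of the cyclic AMP response element, found in 17.8%, on either strand. Both windows were rich in CG dinucleotides, with 36 in Cnr1 and 34 in Oprd1 against a median of 6, and in G and C bases, with 79.2% and 80.0% against a median of 52.4%. Such matches describe letters only, and no binding or methylation was measured. A window was found for 8 of the 10 genes, all but Oprk1 and Dagla. Only those of Cnr1 and Oprd1 are described, so these counts do not set the pair apart from the other members.

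The 3 mice with the lowest levels of Cnr1 and Oprd1, WT-1063, DF-1037 and DF-1062, also had the 3 lowest medium spiny neuron scores, 8.0, 6.71 and 6.18. Cnr1 did not follow the score in order, since DF-1062, with a score of 6.18, had 26.0 FPKM and DF-1037, with 6.71, had 20.8. WT-1041 and WT-1063, with close scores of 8.16 and 8.0, had 55.5 and 28.3 FPKM of Cnr1. Oprd1 did follow the order of the score in these mice. It was 3.42 FPKM in DF-1062, 4.28 in DF-1037, 4.40 in WT-1063 and 5.62 in WT-1041. It did not among the mice of higher score, where DF-1059, with 8.49, had the most Oprd1 at 8.57 FPKM. WT-1063, DF-1037 and DF-1062 had thalamus scores of 7.15, 7.15 and 6.35. DF-1018, the remaining mouse of high thalamus score (6.27), had a medium spiny neuron score of 8.67. Its levels were 56.4 FPKM for Cnr1 and 7.93 for Oprd1. The part of either kind of cell in these levels was not tested. With the medium spiny neuron score as a covariate in edgeR, the log2 fold change was 0.11 for Cnr1 and 0.33 for Oprd1. The unadjusted p for Oprd1 was then 0.0393 in edgeR, and neither gene passed the adjusted threshold. With the thalamus score the log2 fold change was 0.10 for Cnr1 and 0.20 for Oprd1. With the cortical neuron score it stayed negative, at -0.28 for Cnr1 and -0.06 for Oprd1. Within the 4 mice of low thalamus score (3 WT and 1 16p11.2+/-) it was 0.12 and 0.25, and within the 4 of high score (1 WT and 3 16p11.2+/-) it was 0.31 and 0.27. In each of these sets the value rests on the single mouse of one genotype, so it says nothing on the genotypes by itself. Leaving out 1 mouse at a time moved the Cnr1 value between -0.80 (without DF-1059) and -0.18 (without DF-1037), and it was also -0.19 without WT-1015, -0.20 without DF-1062 and -0.65 without WT-1063. The Oprd1 value ran from -0.31 without DF-1059 to 0.12 without DF-1062.

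**Figure D2:**
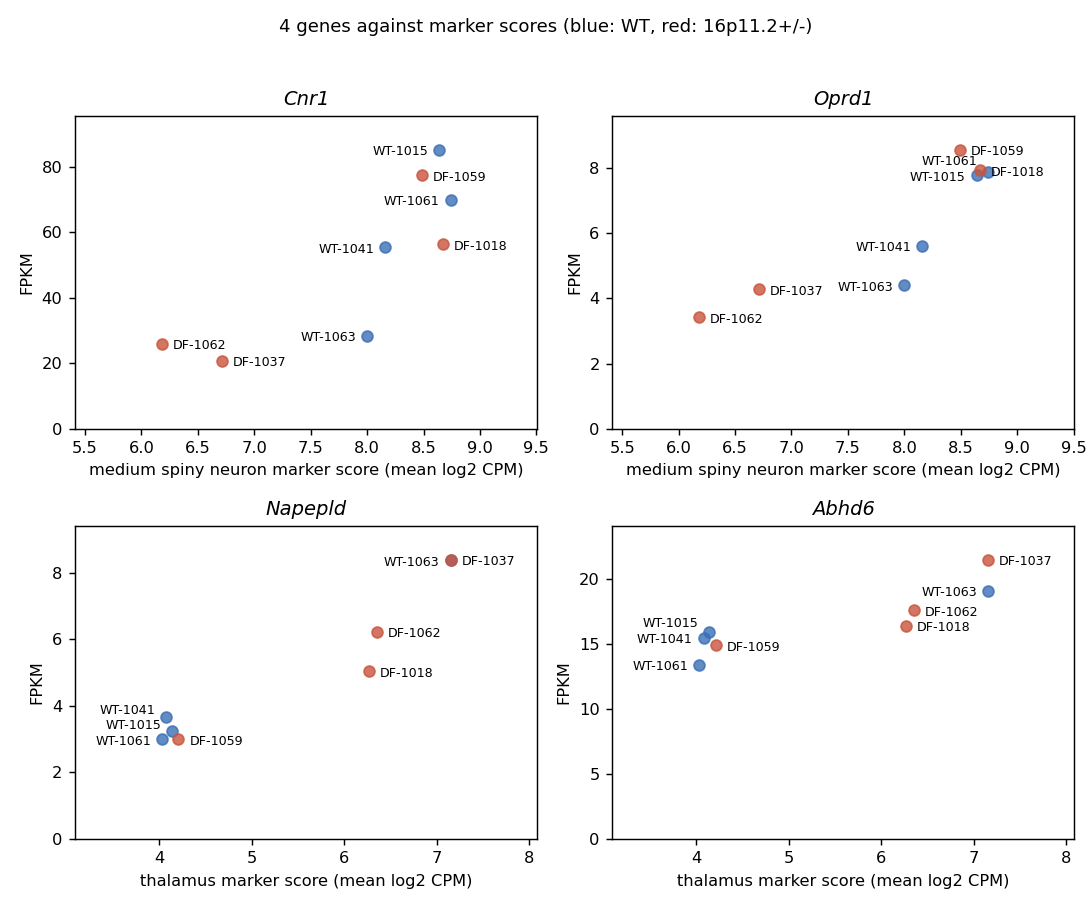
FPKM of Cnr1 and Oprd1 against the medium spiny neuron score, and of Napepld and Abhd6 against the thalamus score, 1 point per mouse with WT in blue and 16p11.2+/- in red. A score is the mean log2 CPM of its markers. The lowest 3 values of Cnr1 (20.8 to 28.3 FPKM) and Oprd1 (3.42 to 4.40 FPKM) belong to the 3 mice of lowest medium spiny neuron score, and Napepld and Abhd6 were higher in all 4 mice of high thalamus score.

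Oprm1, the mu receptor, was close to the limit of detection. Its level of 0.106 to 0.137 FPKM in WT mice and 0.0324 to 0.196 FPKM in 16p11.2+/- mice was below that of all but 0.415% of the genes tested. The libraries held 16, 13, 18 and 15 reads of Oprm1 in WT-1015, WT-1041, WT-1061 and WT-1063, and 17, 4, 17 and 26 in DF-1018, DF-1037, DF-1059 and DF-1062, 126 in all. DF-1037 was low and DF-1062 high, and the other 6 mice fell between 13 and 18 reads. As a description of the counting error of these counts, the 95% exact Poisson interval was 1.09 to 10.2 reads for DF-1037 and 17.0 to 38.1 reads for DF-1062. The mean was 0.122 ± 0.0144 FPKM in WT and 0.124 ± 0.0678 in 16p11.2+/- mice (SD, n = 4 each). The log2 fold change was -0.0024 (SE 0.44) with a 95% interval of -0.99 to 0.99, which in linear terms runs from 0.503 to 1.98 times the WT level. Without DF-1037 it was 0.31, and without DF-1062 it was -0.26. The adjusted p was 0.999 in edgeR and the exact permutation test of FPKM gave p = 0.914. Markers of striosomes, the striatal compartment in which mu receptors are dense, were well above this level, with Kremen1 at 2.37 to 5.98 FPKM and Tshz1 at 7.82 to 9.52 FPKM.

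Oprk1, the kappa receptor for dynorphin, was 3.10, 4.89, 5.41 and 3.29 FPKM in WT-1015, WT-1041, WT-1061 and WT-1063. In DF-1018, DF-1037, DF-1059 and DF-1062 it was 5.84, 5.65, 5.73 and 4.15 FPKM. Of the 16p11.2+/- mice, 3 of 4 lay above every WT mouse, and DF-1062 lay among the WT values. Its log2 fold change was 0.34 (SE 0.21, 95% interval -0.13 to 0.81), with an unadjusted p of 0.139 and an adjusted p of 0.859 in edgeR, and p = 0.171 in the exact permutation test of FPKM. It was positive in every alternative run, from 0.23 without WT-1015 to 0.68 within the 4 mice of high thalamus score. The unadjusted p fell to 0.0381 without WT-1061 and to 0.0454 without DF-1062, with adjusted p-values of 0.984 and 0.999 in edgeR.

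Oprl1, the receptor for nociceptin, was 7.10, 10.5, 7.97 and 8.46 FPKM in WT-1015, WT-1041, WT-1061 and WT-1063. It was 7.61, 11, 9.78 and 21.4 FPKM in DF-1018, DF-1037, DF-1059 and DF-1062. DF-1062 alone stood far above the rest, and the other 3 16p11.2+/- mice spanned about the same range as WT. The log2 fold change of 0.51 (SE 0.27, 95% interval -0.11 to 1.13) was the largest of the 10 genes, with an unadjusted p of 0.0967 and an adjusted p of 0.859 in edgeR, and p = 0.257 in the exact permutation test. Without DF-1062 it was 0.17, and without DF-1018 it was 0.68 (unadjusted p = 0.0287, adjusted p = 0.651 in edgeR). With the medium spiny neuron score as a covariate it was 0.08. DF-1062 was the mouse of lowest medium spiny neuron score, 6.18, while DF-1037, with the next lowest score of 6.71, had 11 FPKM of Oprl1. The part of these cells in the Oprl1 level was not tested.

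**Figure D3:**
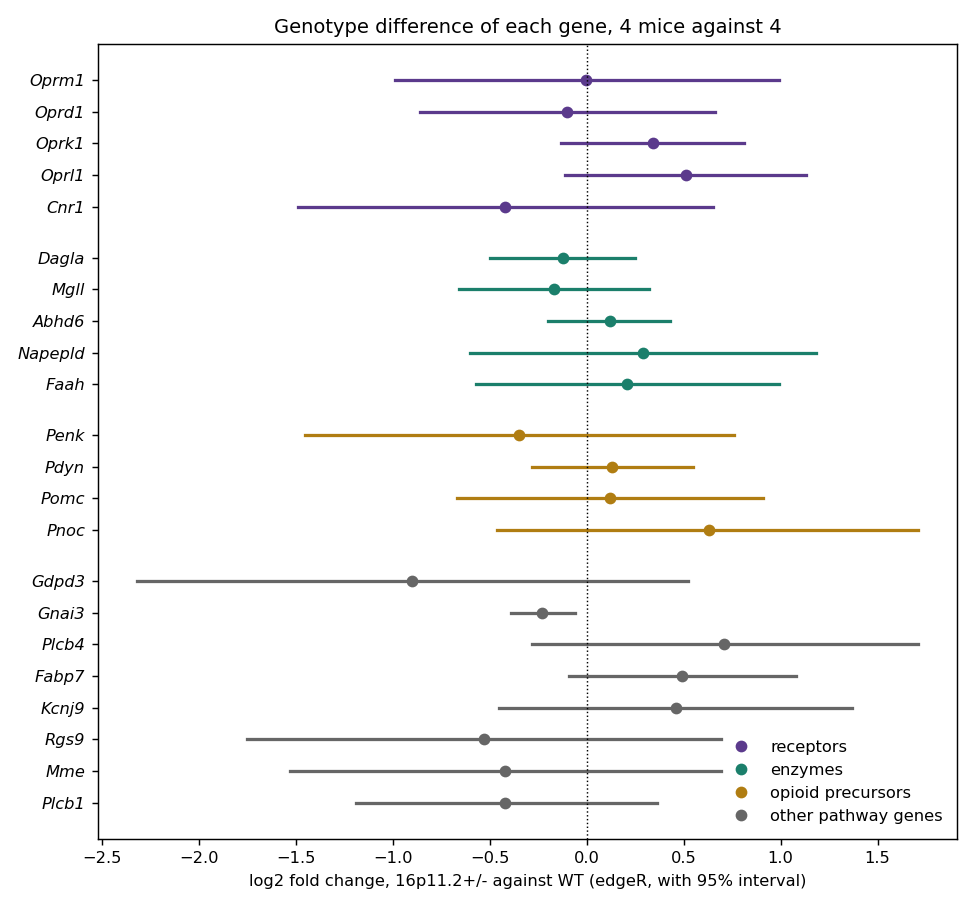
Log2 fold change of 16p11.2+/- against WT mice with its 95% interval from edgeR (4 mice against 4), for the receptors, the enzymes, the opioid precursors and the other pathway genes named in the text. Every interval includes 0 except that of Gnai3 (-0.39 to -0.06), whose adjusted p was 0.859.

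The enzymes of 2-arachidonoylglycerol, the most abundant endocannabinoid of brain, varied less. Dagla, the diacylglycerol lipase that makes it in postsynaptic neurons, was 18.4, 14.8, 15.4 and 14.8 FPKM in WT-1015, WT-1041, WT-1061 and WT-1063. In DF-1018, DF-1037, DF-1059 and DF-1062 it was 15.3, 18.4, 14.2 and 11.1 FPKM. WT-1015 and DF-1037 were equally high, and DF-1062 was the lowest of the 8 mice. The log2 fold change was -0.12 (SE 0.16, 95% interval -0.50 to 0.25), with an adjusted p of 0.888 in edgeR and p = 0.429 in the exact permutation test of FPKM.

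Mgll, the monoacylglycerol lipase that degrades most 2-arachidonoylglycerol at nerve terminals, was 35, 38.2, 34.7 and 23.5 FPKM in the WT mice, in the order used above. In the 16p11.2+/- mice it was 24.9, 36.6, 35.2 and 21.3 FPKM. WT-1063, DF-1018 and DF-1062 were low, at 21.3 to 24.9 FPKM, and the other 5 mice lay between 34.7 and 38.2 FPKM. The 3 low mice were those with cortical neuron scores of 2.45, 1.96 and 2.51, against 4.69 to 6.33 in the other 5. They were also among the 4 mice of high thalamus score, of which DF-1037 had 36.6 FPKM of Mgll. Across genotypes the log2 fold change was -0.17 (SE 0.22, 95% interval -0.66 to 0.32), with an adjusted p of 0.882 in edgeR and p = 0.514 in the exact permutation test, and with the cortical neuron score as a covariate it was -0.03. The part of other cells in the Mgll level was not tested.

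Abhd6, a postsynaptic hydrolase of the same lipid, was 15.9, 15.5, 13.4 and 19.1 FPKM in the WT mice and 16.4, 21.5, 14.9 and 17.6 FPKM in the 16p11.2+/- mice. It was the steadiest of the 10 genes, with a highest value 1.6 times the lowest. The 4 mice of high thalamus score lay at 16.4 FPKM or more and the other 4 at 15.9 or less. Its log2 fold change was 0.12 (SE 0.14, 95% interval -0.20 to 0.43), with an adjusted p of 0.876 in edgeR and p = 0.457 in the exact permutation test of FPKM.

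Napepld, the phospholipase D that releases anandamide and related lipids from membrane precursors, was 3.24, 3.68, 2.99 and 8.38 FPKM in the WT mice. In the 16p11.2+/- mice it was 5.04, 8.4, 3.0 and 6.24 FPKM. The split ran across genotypes, since WT-1063, DF-1018, DF-1037 and DF-1062 were at 5.04 FPKM or more and the other 4 mice at 3.68 or less. These are the 4 mice of high thalamus score, and Napepld and Abhd6 were the 2 of the 10 genes whose values did not overlap between the mice of high and low score, as was the case for 8.22% of all genes tested. Between genotypes the log2 fold change was 0.29 (SE 0.39, 95% interval -0.60 to 1.18), with an adjusted p of 0.888 in edgeR and p = 0.571 in the exact permutation test. It was 0.75 without WT-1063, the WT mouse of high thalamus score (unadjusted p = 0.0385, adjusted p = 0.594 in edgeR), and 0.04 without DF-1037. With the thalamus score as a covariate it was -0.19, and within the mice of low and of high score it was -0.16 and -0.34.

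Faah, which hydrolyses anandamide, was 5.37, 6.63, 3.88 and 5.09 FPKM in the WT mice and 3.63, 11.1, 3.94 and 5.91 FPKM in the 16p11.2+/- mice. DF-1037 was well above all others, and DF-1018 and DF-1059 were among the lowest. DF-1037 also had the highest cortical neuron score (6.33) and a low medium spiny neuron score (6.71), and the part of either in its Faah level was not tested. The log2 fold change was 0.21 (SE 0.34, 95% interval -0.57 to 0.99), with an adjusted p of 0.907 in edgeR and p = 0.771 in the exact permutation test of FPKM. Without DF-1037 it was -0.25, and without DF-1037 and DF-1062 together it was -0.46 (unadjusted p = 0.0478, adjusted p = 0.995 in edgeR).

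**Figure D4:**
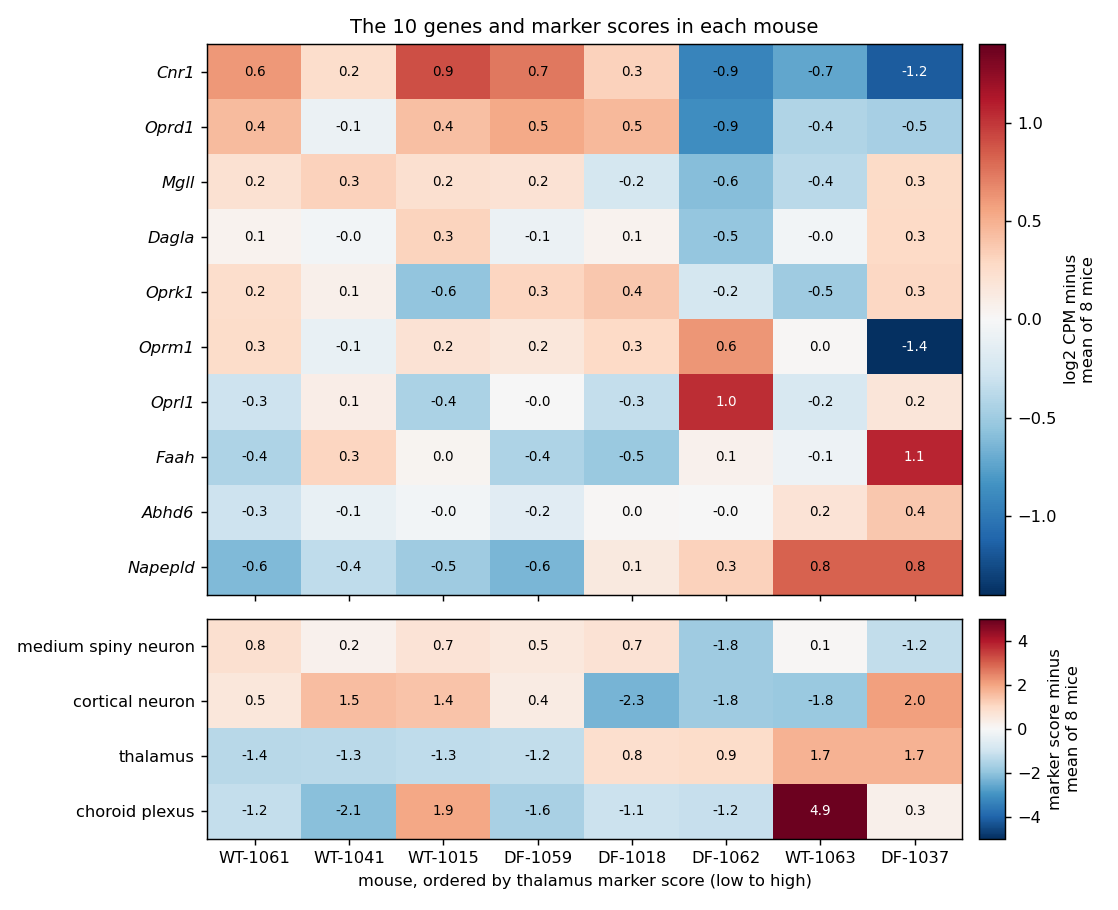
Log2 CPM of each of the 10 genes (upper panel) and 4 marker scores (lower panel) in each mouse, minus the mean of the 8 mice, with mice ordered from low to high thalamus score. Red is above and blue below the mean, on a separate colour scale in each panel. Cnr1 and Oprd1 are blue in DF-1062, WT-1063 and DF-1037, and Napepld is red in the 4 mice on the right.

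The likeness of other genes to the most variable of the 10 was taken as the root mean square difference of mean-centred log2 CPM over the 8 mice. Cnr1 and Oprm1 had the widest range, 2.06 log2 CPM each. Closest to Cnr1 were Pde2a (0.154), Gm15337 (0.186) and Gprin3, a G protein-regulated inducer of neurite outgrowth (0.195). The Pde2a entry, a gene whose product degrades cyclic nucleotides, had 89 to 353 reads per mouse, at 0.943 to 3.8 FPKM. Gm15337 is an antisense transcript with 12 to 52 reads per mouse. Pde2a and Gprin3 were lowest in DF-1037 and highest in WT-1015, as Cnr1 was. Closest to Oprm1 were Klhl1 (0.192), Cd59b (0.198) and an unnamed transcript (0.222), all lowest in DF-1037, of which Cd59b and the unnamed transcript had at most 28 reads in any mouse. As these genes were picked for likeness over the same 8 mice, sharing the lowest or highest mouse is not a separate result.

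Other genes of both systems were described from lists of 55 genes in 6 groups, of which 52 were tested and Cnr2, Trpv1 and Plaat5 had too few counts. None of the 52 passed the adjusted threshold with edgeR, beside 0.109% of all genes, or with DESeq2 or limma-voom, 30 log2 fold changes were positive and 22 negative, and the median was 0.04. At an unadjusted edgeR p under 0.05 there was 1 gene, Gnai3, against 4.32% of all genes. At the same threshold DESeq2 gave 1 of 55 (2.92% of all genes) and limma-voom 2 of 52 (4.27%). By group, the median log2 fold change was 0.13 for 4 opioid precursors, 0.03 for 6 genes of peptide processing and breakdown and 0.10 for 17 genes of Gi signalling. It was -0.12 for 12 other enzymes of endocannabinoid metabolism, 0.14 for 6 other targets and carriers and 0.06 for 7 genes that couple receptors to endocannabinoid release.

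Of the ligand precursors, Penk, which encodes the enkephalins and marks indirect pathway neurons, was 368, 279, 453 and 266 FPKM in WT-1015, WT-1041, WT-1061 and WT-1063. In DF-1018, DF-1037, DF-1059 and DF-1062 it was 456, 111, 395 and 115 FPKM. DF-1037 and DF-1062 were far below the other 6 mice, as they were for the medium spiny neuron score. Between genotypes the log2 fold change was -0.35 (SE 0.49) with an adjusted p of 0.892 in edgeR, and it was 0.32 without these 2 mice. Of the exon length of Penk, 14.3% is overlapped on the opposite strand by A830012C17Rik.

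Pdyn, which encodes the dynorphins, ranged from 18.6 to 26.5 FPKM in WT and from 17.8 to 29.8 in 16p11.2+/- mice (log2 fold change 0.13, SE 0.18). Without DF-1037 and DF-1062 the log2 fold change of Pdyn was 0.40 (unadjusted p = 0.0216, adjusted p = 0.995 in edgeR). With the medium spiny neuron score as a covariate it was 0.34 (unadjusted p = 0.0344 in edgeR, not past the adjusted threshold). Unlike Penk, Pdyn was not low in DF-1062, at 23.0 FPKM. Pnoc, the nociceptin precursor, was 2.08, 3.33, 0.962 and 2.98 FPKM in WT mice and 1.49, 3.69, 2.77 and 6.87 FPKM in 16p11.2+/- mice, so DF-1062 was highest for Pnoc as it was for the receptor gene Oprl1. The log2 fold change of Pnoc was 0.63 (SE 0.48, adjusted p = 0.859 in edgeR), and it was 0.19 without DF-1062. Pomc, the precursor of beta-endorphin, lay between 0.367 and 0.793 FPKM, with at most 17 reads in any mouse, and had a log2 fold change of 0.12 (SE 0.35).

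Gdpd3, a phosphodiesterase that can release N-acylethanolamines, is the listed gene inside the deleted segment. It was 0.968, 2.63, 2.29 and 1.87 FPKM in WT-1015, WT-1041, WT-1061 and WT-1063, and 2.58, 0.358, 0.394 and 0.831 FPKM in DF-1018, DF-1037, DF-1059 and DF-1062. Of the 16p11.2+/- mice, 3 of 4 were below every WT mouse, and DF-1018 was among the highest. Across genotypes the log2 fold change was -0.90 (SE 0.63, 95% interval -2.32 to 0.52), with an adjusted p of 0.859 in edgeR, and it was -1.90 without DF-1018 (adjusted p = 0.651). It rested on 12 to 88 reads per mouse, and 13.6% of its exon length is overlapped on the opposite strand by Gm9967.

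Gnai3, an inhibitory G protein subunit that these receptors can use, was 15.1, 13.8, 14.2 and 16.1 FPKM in the WT mice and 12.4, 13.2, 12.9 and 13.0 FPKM in the 16p11.2+/- mice. All 4 16p11.2+/- mice were below all 4 WT mice. The log2 fold change of -0.23 (SE 0.07) had an unadjusted p of 0.0125 and an adjusted p of 0.859 in edgeR. Gnai3 is named here because of that unadjusted p and the lack of overlap. The p of 0.0286 in the exact permutation test, the smallest it can give, follows from the lack of overlap and adds nothing to it. Gnai3 was the 1 pathway gene of 52 without overlap between genotypes, beside 2.85% of all genes.

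The largest log2 fold changes among the other listed genes were those of Plcb4 (0.71), Fabp7 (0.49) and Kcnj9 (0.46), and the smallest were those of Rgs9 (-0.53), Mme (-0.42) and Plcb1 (-0.42). All had an adjusted p of at least 0.859 in edgeR. Plcb4, a phospholipase C that acts downstream of metabotropic receptors and is abundant in thalamus, was 16.0 to 25.9 FPKM in the 4 mice of high thalamus score and 6.87 to 8.81 in the other 4. Kcnj9, a potassium channel subunit opened by Gi-coupled receptors, was 13.7 to 36.8 and 9.45 to 13.2 FPKM in the same sets. Rgs9, which speeds the end of Gi signalling in medium spiny neurons and is also among their 11 markers here, was 13.4 FPKM in DF-1037 and 10.8 in DF-1062 against 36.5 to 60.8 FPKM in the other 6 mice. Mme, the enkephalin-degrading peptidase neprilysin, followed the same division, at 1.96 and 2.07 FPKM against 4.52 to 8.56. With the medium spiny neuron score as a covariate the log2 fold change was 0.10 for Mme and 0.01 for Plcb1. That of Rgs9 under this covariate carries no information, because Rgs9 is part of the score.

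**Figure D5:**
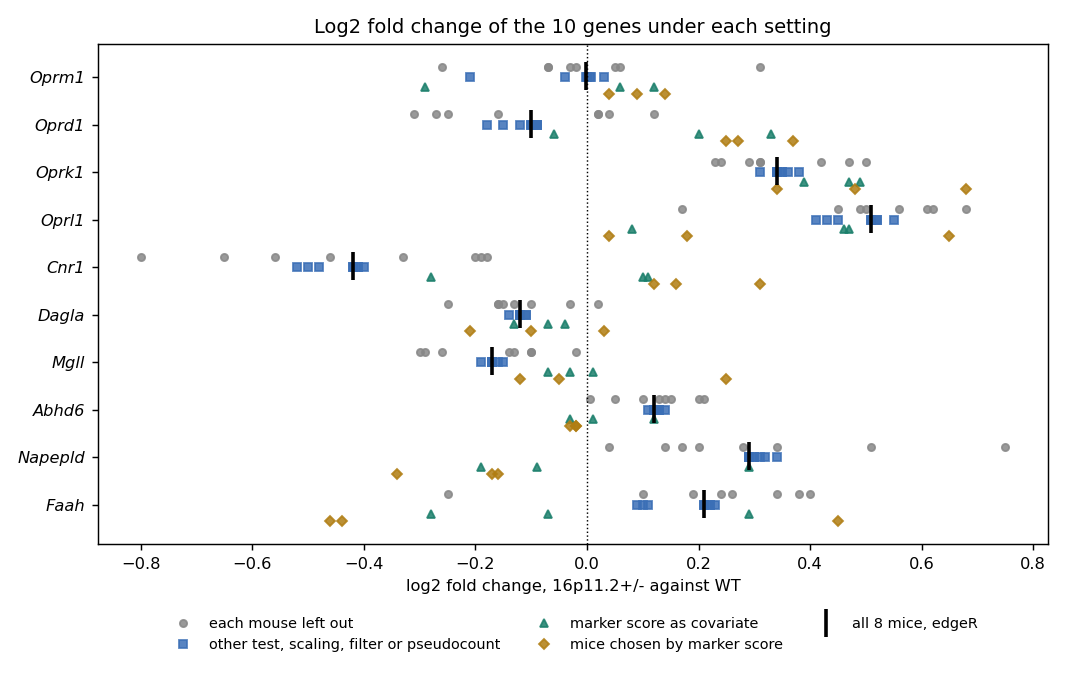
Log2 fold change of the 10 genes between genotypes under each alternative, with the value from all 8 mice in edgeR as a black line. Grey points leave out 1 mouse each, blue squares change the test, scaling, filter or pseudocount, green triangles add a marker score as a covariate, and brown diamonds use mice chosen by marker score. Oprk1 and Oprl1 stay above 0 throughout, whereas the other 8 genes change sign under at least 1 alternative.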

How the data were processed

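The authors isolated total RNA with TRIzol, sequenced paired-end libraries on an Illumina HiSeq system, mapped the reads with Hisat2 2.1.0 and counted them per gene with Htseq-count. The deposited table gives raw counts and FPKM per gene and mouse, and for 14504 genes with at least 20 counts the FPKM was checked to be the count over a constant length per gene and over the library total, which leaves out Oprm1, Pomc and Gdpd3. That length equals the exon length in GENCODE M21 (GRCm38), within 0.001 of its value, for 95.4% of 14234 genes compared. The submitters' processing notes list Bowtie 0.12.2, mm8 and mm9, and the build, annotation and strand setting of the counting are not given in the sources used here. A deposited comparison table of the authors (group signal, fold change and p-value) and a summary of FPKM in bins were not used.

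The quasi-likelihood test of edgeR 4.0.16 (R 4.3.3) was run on the counts with TMM factors, after filterByExpr at its defaults (count of 10, total of 15), and p-values were adjusted by Benjamini-Hochberg over 18294 genes with a threshold of 0.05. Standard errors and 95% intervals came from the F statistic. FPKM was compared with two-sided exact permutation tests. Marker scores are the mean log2 CPM (prior count 2) of a list. Results were recomputed with DESeq2 1.42.0, with limma 3.58.1 as voom on counts or as trend on log2 FPKM (pseudocount 1 or 0.1), and with edgeR under RLE factors, library totals, other filters, thalamus and cortical scores as covariates and each mouse left out. The medium spiny neuron score as a covariate and the sets of mice by marker score were added after seeing the data. The code was tested on simulated data.

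The members, the pathway and marker lists and the tests were chosen with earlier results of these data known. The genes named are the 10 members, the opioid precursors, Gdpd3, listed genes past the threshold or with an unadjusted p under 0.05 and no overlap, the 3 largest and 3 smallest log2 fold changes of the lists, and the 3 genes closest to each of the 2 most variable members. The labels give no batch. The groups share no replicate numbers, so no samples were paired.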

Additional observations from a re-analysis of the deposited data

Results flagged for a closer look

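In groups of 4 mice, a value was taken up here when its gap to the nearest other value was a larger share of the range of the group than the 95% critical value of Dixon's test, which chance gives in about 1 of 20 groups. The FPKM of the 10 genes and of 12 other named genes of both systems and the scores of 11 marker lists were examined in each genotype, 66 groups in all, of which 6 had such a value. The other named genes and 5 of the lists were added after seeing the data. Oprk1 in DF-1062 was 4.15 FPKM against 5.65 to 5.84 in the other 16p11.2+/- mice, a gap of 0.888 of the range. Dagla in WT-1015 was 18.4 FPKM against 14.8 to 15.4 in the 3 other mice of its genotype, with a gap of 0.832. Napepld in WT-1063 was 8.38 FPKM against 2.99 to 3.68 in the 3 other mice of its genotype, with a gap of 0.873. WT-1063 had a thalamus score of 7.15, and the rest of the WT mice 4.03 to 4.14, with a gap of 0.965. Plcb4 in the same mouse was 21.6 FPKM, and 6.87 to 7.69 FPKM in the rest of the WT mice, with a gap of 0.944. The cholinergic interneuron score of DF-1037 was 2.03, and 4.35 to 4.42 in the remaining 16p11.2+/- mice, with a gap of 0.971.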

How the results depend on the processing

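None of the 10 genes and none of the listed pathway genes passed the adjusted threshold under any alternative run. For the 10 genes this covers 219 alternative log2 fold changes, of which 175 kept the sign found with all 8 mice, and the smallest adjusted p was 0.594, for Napepld without WT-1063. At an unadjusted p under 0.05 no alternative gave more than 1 of the 10. The runs that gave 1 are listed here with the count over all genes. They were those without WT-1061 (562 of 18679), without WT-1063 (1530 of 18641), without DF-1018 (1343 of 18728) and without DF-1062 (476 of 18638). The others were those with the medium spiny neuron score as a covariate (561 of 18294) and without DF-1037 and DF-1062 together (770 of 19092). Oprk1 and Oprl1 kept their sign throughout. Of all genes, 20 were called with edgeR, 29 with DESeq2 and 20 with limma-voom, and 8 to 18 with a mouse left out: 10 without WT-1015, 11 without WT-1041, 10 without WT-1061, 8 without DF-1018, 8 without DF-1059 and 12 without DF-1062. There were 3 within the mice of low thalamus score, 0 within those of high score (520 at an unadjusted p under 0.05 in edgeR) and 11 without DF-1037 and DF-1062. In both of the former sets the lone mouse of a genotype was assumed to vary like the others.

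The sign of a log2 fold change reversed as follows, and the cause was not tested. With the thalamus score as a covariate it was 0.12 for Oprm1, 0.20 for Oprd1, 0.10 for Cnr1, 0.01 for Mgll, -0.07 for Faah, -0.19 for Napepld, -0.03 for Abhd6 and -0.09 for Kcnj9. With the medium spiny neuron score it was 0.06 for Oprm1, 0.33 for Oprd1, 0.11 for Cnr1, -0.28 for Faah, -0.09 for Napepld, 0.16 for Penk, -0.08 for Pnoc, -0.06 for Kcnj9, 0.0038 for Rgs9 (which is part of the score), 0.10 for Mme and 0.01 for Plcb1. Within the mice of low thalamus score it was 0.04 for Oprm1, 0.25 for Oprd1, 0.12 for Cnr1, -0.44 for Faah, -0.16 for Napepld, -0.02 for Abhd6, 0.09 for Penk, -0.27 for Kcnj9 and 0.24 for Mme. Within those of high score it was 0.09 for Oprm1, 0.27 for Oprd1, 0.31 for Cnr1, 0.03 for Dagla, 0.25 for Mgll, -0.34 for Napepld, -0.03 for Abhd6, -0.02 for Plcb4 and 0.11 for Plcb1. Without DF-1037 and DF-1062 it was 0.14 for Oprm1, 0.37 for Oprd1, 0.16 for Cnr1, -0.46 for Faah, -0.17 for Napepld, -0.02 for Abhd6, 0.32 for Penk, -0.13 for Pnoc, -0.25 for Kcnj9, 0.19 for Rgs9, 0.26 for Mme and 0.05 for Plcb1. Oprm1, at -0.0024, was also 0.007 in DESeq2, 0.0054 with RLE factors, 0.03 with library totals and 0.00058 on log2(FPKM + 1), and its log2 ratio of mean CPM was -0.01. It could not be fitted with at least 10 counts in every mouse. With 1 mouse left out in turn, log2 fold changes ran from -0.26 to 0.31 for Oprm1, -0.31 to 0.12 for Oprd1, -0.25 to 0.02 for Dagla, -0.25 to 0.40 for Faah and -0.03 to 0.72 for Kcnj9. The log2 ratios of mean FPKM then ran from -0.28 to 0.34 for Oprm1, -0.30 to 0.11 for Oprd1, -0.23 to 0.0091 for Dagla and -0.22 to 0.42 for Faah. No paired analysis was possible because WT and 16p11.2+/- mice have no replicate number in common.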
